A study of Mus musculus with 35 samples.

Results

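The genes described here are the cyclin-dependent kinase (CDK) inhibitor genes and the retinoblastoma family genes of hematopoietic stem/progenitor cells (HSPCs). They were chosen by name, as Cdkn1a, which encodes p21, Cdkn1b, Cdkn1c, Cdkn2c, Cdkn2d, Rb1, Rbl1 and Rbl2. All 8 were among the 11982 gene names of the deposited RNA-seq table, and all 8 passed the filter of a mean of at least 0.5 RPKM (reads per kilobase of transcript, scaled to a common number of mapped reads). Polyadenylated RNA was sequenced from bone marrow HSPCs of wild-type (WT) mice in 2 libraries and of JMJD1B-/- mice in 2 libraries, both on the mixed 129P2xC57BL/6J background. JMJD1B-/- mice carried a gene trap in both copies of Kdm3b, the gene of the histone demethylase JMJD1B, in every tissue, and were derived from embryonic stem cells of the 129P2 background. The labels name no treatment besides the gene trap. The study used adult mice of both sexes, and the labels give neither the age, the sex nor the number of mice behind a library. They call the 2 libraries of a genotype biological replicates. The comparison addressed which of these genes differ in RNA level between WT and JMJD1B-/- HSPCs.

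CDK inhibitors hold the cell cycle before the start of DNA replication. The CIP/KIP inhibitors p21 (Cdkn1a), p27 (Cdkn1b) and p57 (Cdkn1c) bind complexes of cyclins with CDKs, above all those with CDK2, while the INK4 inhibitors p18 (Cdkn2c) and p19 (Cdkn2d) bind CDK4 and CDK6 and keep them from D-type cyclins. Active CDKs phosphorylate the pocket proteins RB (Rb1), p107 (Rbl1) and p130 (Rbl2), which otherwise hold E2F transcription factors and silence the genes of DNA replication. In HSPCs several of these inhibitors are known for restraining the entry of quiescent cells into the cycle, and p21 is a classic target of the transcription factor p53.

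Promoters of Cdkn1a, of Cdkn2d and of Cdkn2c are shown because the first pair had lower RPKM in both JMJD1B-/- libraries while Cdkn2c, the closest relative of Cdkn2d in the set, did not. The sequences are from RefSeq, build GRCm38.p6, and cover the 120 bases before an annotated start, read 5′ to 3′ on the strand of the gene. They are Cdkn1a before its upstream start (chr17:29090859-29090978, + strand), Cdkn1a before its downstream start (chr17:29093649-29093768, + strand), Cdkn2d (chr9:21291210-21291329, - strand) and Cdkn2c before 1 of its 2 annotated starts (chr4:109666757-109666876, - strand). Capitals mark letters of the motifs named after the sequences.
Cdkn1a, upstream start: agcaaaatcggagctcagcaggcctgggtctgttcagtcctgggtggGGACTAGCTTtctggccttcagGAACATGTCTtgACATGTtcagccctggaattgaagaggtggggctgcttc
Cdkn1a, downstream start: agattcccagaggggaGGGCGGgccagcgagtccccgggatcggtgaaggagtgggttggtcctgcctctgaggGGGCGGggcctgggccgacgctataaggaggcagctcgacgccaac
Cdkn2d: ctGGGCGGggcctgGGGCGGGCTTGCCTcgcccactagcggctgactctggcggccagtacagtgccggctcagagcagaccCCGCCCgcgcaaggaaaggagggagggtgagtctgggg
Cdkn2c: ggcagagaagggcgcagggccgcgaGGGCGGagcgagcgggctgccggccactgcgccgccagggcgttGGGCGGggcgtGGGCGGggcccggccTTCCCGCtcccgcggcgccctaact

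The motifs were searched on both strands of the 250 bases before each start. They were the GC box (GGGCGG), the p53 half-site, the E2F motif, and the letters ACATGT occurring at least 2 times, the last chosen after the Cdkn1a sequence had been seen. The E2F motif was taken in 3 spellings, of which one was TTCCCGC. Another spelling searched was TTGGCGC. The remaining spelling searched was TTCGCGC. Before the upstream start of Cdkn1a, matches to the p53 half-site began at −73 and −51, counted from the start, and ACATGT stood at −49 and at −39, the first of these inside the half-site at −51. A half-site was present in 7.13% of the 32851 promoter windows of the RefSeq table and a repeated ACATGT in 0.247%. The downstream start of Cdkn1a had GC boxes at −104 and −46 and no match to the half-site. Cdkn2d had GC boxes at −118, −106 and −38 and a half-site match at −102 that overlaps the second of them. Cdkn2c had GC boxes at −95, −51 and −40 and an E2F motif at −25, and the other start of Cdkn2c had none of these motifs. An E2F motif also stood at −17 of Rbl1, against 6.69% of all windows with such a motif and 32.7% with a GC box. These matches are descriptions of the letters, and binding was not tested. RefSeq windows were found for 6 of the 8 genes, and Cdkn1c and Rb1 had no entry.

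In WT HSPCs the pocket protein genes and Cdkn1b were the most abundant of the set, with means from 27.3 RPKM for Cdkn1b to 33.7 RPKM for Rbl1. RPKM is a level per length and can be compared between genes. Rbl1 lay above Rbl2 (28.4 RPKM) in both libraries, while neighbours among Rbl2, Rb1 (27.6 RPKM) and Cdkn1b overlapped. Cdkn2d (12.6 RPKM) and Cdkn2c (10.6 RPKM) followed and overlapped each other, Cdkn1a had 1.82 RPKM and Cdkn1c 0.794 RPKM. In JMJD1B-/- HSPCs the order was Rb1 (34.98 RPKM), Rbl1 (33.9 RPKM), Rbl2 (28.8 RPKM), Cdkn1b (24.4 RPKM), Cdkn2c (10.6 RPKM), Cdkn2d (7.44 RPKM), Cdkn1c (0.704 RPKM) and Cdkn1a (0.326 RPKM). Each neighbour pair from Rb1 to Cdkn1b overlapped in that order, as did Cdkn1c and Cdkn1a, while Cdkn2c lay above Cdkn2d in both libraries. Among all listed genes, 8.95% and 16.8% had a lower level than Cdkn1a in WT replicates 1 and 2. This share was 6.15% in JMJD1B-/- replicate 2, and no gene can be lower in JMJD1B-/- replicate 1, where 156 entries are listed at 0, Cdkn1a among them. For Rbl1 the shares lay between 82.9% and 86.4% in the 4 libraries.

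**Figure D1:**
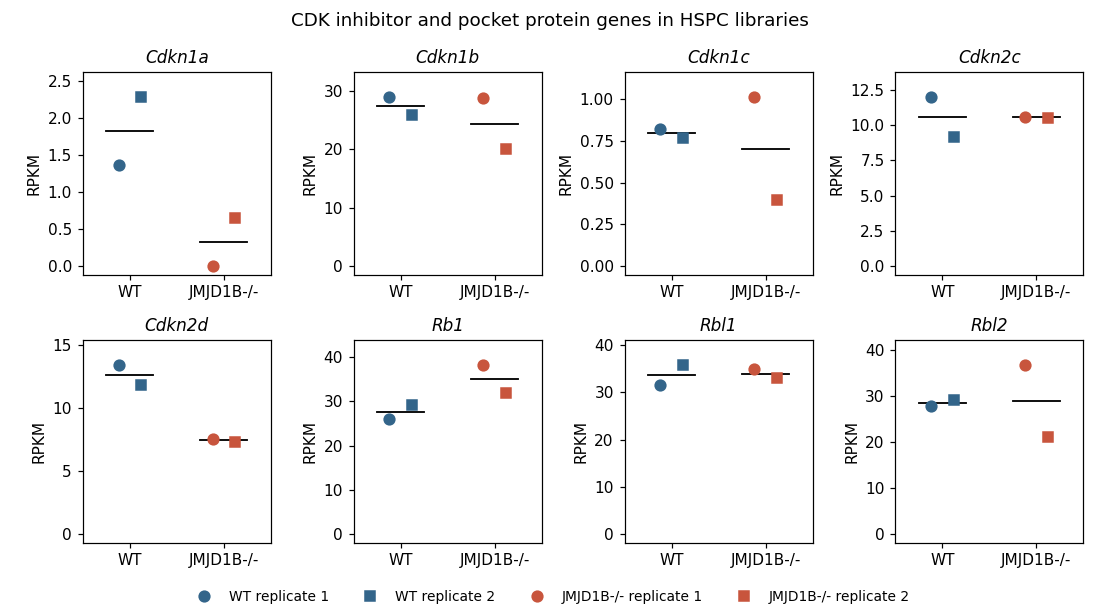
RPKM of each of the 8 genes (vertical axis, linear, 1 panel per gene with its own scale) in the 2 WT and the 2 JMJD1B-/- libraries, with points for single libraries and a black line for the mean of a genotype. Both JMJD1B-/- points lie below both WT points for Cdkn1a and Cdkn2d and above them for Rb1, and the points of the other 5 genes overlap.

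The knockout was checked first. Kdm3b measured 31.0 and 24.3 RPKM in WT and 4.00 and 4.63 RPKM in JMJD1B-/- HSPCs, 15.6% of the WT mean (log2 fold change −2.65, standard error 0.24, adjusted p = 0.0314 in limma). Its log2 fold change lay between −2.82 and −2.42 in the alternatives. The adjusted p was 0.0723 with median-ratio scaling, 0.0991 with quantile normalization, 0.212 in limma without the trend, 0.608 in the gene-by-gene test, and 0.796 and 0.619 in limma when WT replicate 1 and WT replicate 2 were left out. The depth, estimated from the whole-number steps of low values, was 17500000 reads in WT replicate 1, 24600000 in WT replicate 2 and 21000000 in JMJD1B-/- replicate 2. JMJD1B-/- replicate 1 was the shallowest library, at 6110000 reads. WT replicate 2 stood apart by sex, with 331.6 RPKM of Xist against 0 to 0.051 RPKM elsewhere, and 0.411 RPKM of the Y-linked Ddx3y against 25.5 to 29.3 RPKM. All 14 HSPC markers were listed and summed to 679 and 652 RPKM in WT and 515 and 605 RPKM in JMJD1B-/- HSPCs. Of these, 12 had a log2 fold change below 0, against 53% of all genes, 6 were lower without overlap, against 22.7%, and 5 were lower at an unadjusted p under 0.05, against 6.33%, with a median of −0.62. Kit overlapped between the genotypes (51.6 to 92.7 RPKM), while Cd34 was at 37.8% of the WT mean, with 42.9 and 43.6 RPKM in WT and 20.9 and 11.7 RPKM in JMJD1B-/- HSPCs. Flt3 had 25.1 and 32.6 RPKM in WT and 18.4 and 3.37 RPKM in JMJD1B-/- HSPCs. The summed level of 10 erythroid markers was 490 and 736 RPKM in WT and 1336 and 1931 RPKM in JMJD1B-/- HSPCs, and all 10 were higher without overlap, against 20.1% of all genes. Basophil and mast cell markers summed to 547 and 603 RPKM in WT and 127 and 89.1 RPKM in JMJD1B-/- HSPCs, and all 7 were lower without overlap, against 22.7%. In bulk RNA, fewer cells of a type and less RNA per cell cannot be told apart, and the part of this difference in cell makeup in the results that follow was not tested.

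Across all 11863 genes tested, 0.0421% had an adjusted p under 0.05 (limma on log2(RPKM + 0.1), Benjamini-Hochberg adjustment), and none of the 8 genes did. At an unadjusted p under 0.05, 2 of the 8 were lower in JMJD1B-/- HSPCs, against 6.33% of all genes, and 0 were higher, against 3.81%. In either direction these were 2 of 8 against 10.1%. Over all genes this was 751 lower and 452 higher, and 714 lower and 671 higher with quantile normalization, where 1 of the 8 genes, Cdkn2d, was lower at this threshold. Without WT replicate 1 or without WT replicate 2, 0 of the 8 were lower at this threshold, and 1.49% and 2.29% of all genes were. Cdkn1a and Cdkn2d were lower without overlap between the genotypes, against 22.7% of all genes. Rb1 was higher without overlap, against 20.1%, and so 3 of 8 did not overlap in either direction, against 42.9%. The counts of lower genes include Cdkn1a, which is listed only through the WT libraries, the group where it is higher. They are therefore no support for its change. The log2 fold change was below 0 for 5 of the 8 genes and for 53% of all genes, and its median was −0.11 over the 8 genes and −0.02 over all genes. Fold changes are JMJD1B-/- minus WT on the log2(RPKM + 0.1) scale, where the size of a low gene's change depends on the 0.1 added.

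Cdkn1a encodes p21, the CIP/KIP inhibitor that p53 induces after DNA damage. WT replicates 1 and 2 measured 1.37 and 2.28 RPKM. JMJD1B-/- replicate 2 measured 0.652 RPKM, and the gene is listed at 0 in JMJD1B-/- replicate 1. Both JMJD1B-/- libraries were lower than both WT libraries, and the higher WT value belonged to WT replicate 2, the library with Xist. At the estimated depths the WT values correspond to 24.0 and 56.1 reads per kilobase of transcript, and that of JMJD1B-/- replicate 2 to 13.7. In the shallow JMJD1B-/- replicate 1, the lower WT level would have given 8.36 reads per kilobase. Taking 3 reads on 1 kb as the limit that a count of 0 allows, which is 0.491 RPKM in that library, the WT mean was at least 3.71-fold higher than that library and the lower WT value at least 2.79-fold higher. This limit covers counting error alone. The log2 fold change was −2.77 (standard error 1.11, 95% interval −5.37 to −0.17) with an adjusted p of 0.477 in limma, and the JMJD1B-/- mean was 17.9% of the WT mean.

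The sign of the Cdkn1a difference was the same in all 14 alternatives, most of which cannot turn the sign of a gene without overlap. Its size moved with the treatment of the value listed at 0. The 0.1 RPKM added to it is under the limit of 0.491 RPKM for that library, so that −2.77 is not a lower bound on the change. The log2 fold change was −1.12 with a pseudocount of 1 and −4.45 with a pseudocount of 0.01. Leaving out JMJD1B-/- replicate 1 gave −1.31. Leaving out JMJD1B-/- replicate 2 gave −4.22, where the value listed at 0 alone stands for JMJD1B-/- HSPCs. The log2 fold change was −2.42 without WT replicate 2, the library of the other sex. The table holds names that reach 1 RPKM in at least 1 library, and Cdkn1a reached that level in the WT libraries alone, so it would have been left out of the table had its WT level been as low as its JMJD1B-/- level.

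Cdkn1b, which encodes p27, supplied most of the CIP/KIP transcripts. It measured 28.9 and 25.8 RPKM in WT and 28.7 and 20.1 RPKM in JMJD1B-/- HSPCs. The log2 fold change of Cdkn1b was −0.18 (standard error 0.23, 95% interval −0.72 to 0.35, adjusted p = 0.812 in limma). The genotypes overlapped, because JMJD1B-/- replicate 1 lay at the level of WT and JMJD1B-/- replicate 2 below it. The summed RPKM of the 3 CIP/KIP genes was 31.1 and 28.8 in WT and 29.7 and 21.1 in JMJD1B-/- HSPCs, of which Cdkn1b made up 89.4% to 96.6% in single libraries.

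Cdkn1c, an imprinted gene that encodes p57, was the lowest of the set in WT HSPCs, at 0.823 and 0.766 RPKM. The JMJD1B-/- replicates measured 1.01 and 0.397 RPKM, on either side of both WT values. Its log2 fold change of −0.27 had a standard error of 0.79 and a 95% interval from −2.12 to 1.59 (adjusted p = 0.933 in limma). The values correspond to 6.17 to 18.8 estimated reads per kilobase, and a change within that interval could not be told from 0 with these libraries. Cdkn1c is in the table through JMJD1B-/- replicate 1, where it passed 1 RPKM.

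Of the INK4 inhibitors, Cdkn2d was lower in both JMJD1B-/- libraries and Cdkn2c overlapped between the genotypes. Cdkn2d, which encodes p19, measured 13.4 and 11.8 RPKM in WT and 7.55 and 7.33 RPKM in JMJD1B-/- HSPCs. Both JMJD1B-/- libraries were lower than both WT libraries and lay close together, at 59.0% of the WT mean (log2 fold change −0.75, standard error 0.23, 95% interval −1.29 to −0.21). The unadjusted p was 0.0127 and the adjusted p 0.373 in limma. Over 14 alternatives of scaling, filter, test and left-out libraries the log2 fold change lay between −0.84 and −0.66, with adjusted p-values from 0.0969 to 1. The table has 2 entries under this name, listed next to different genes, whose mean is used here. The entry between Kri1 and Slc44a2 had 13.9, 11.9, 7.62 and 7.55 RPKM and the entry between Cxcr6 and Ccr1 had 13.0, 11.8, 7.48 and 7.10 RPKM, in the order of WT replicates 1 and 2 and JMJD1B-/- replicates 1 and 2. Their values follow each other, they may share reads with a near-identical copy, and the level of Cdkn2d is uncertain for that reason.

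Cdkn2c, which encodes p18, measured 11.98 and 9.18 RPKM in WT and 10.6 and 10.5 RPKM in JMJD1B-/- HSPCs, which lay between the WT values. Its log2 fold change was 0.01 (standard error 0.24, 95% interval −0.55 to 0.57, adjusted p = 0.994 in limma). The ratio of Cdkn2c to Cdkn2d within a library was 0.895 and 0.779 in WT and 1.4 and 1.43 in JMJD1B-/- HSPCs, and this ratio does not depend on the scaling of a library. The genotypes did not overlap and the ratio differed by 0.76 on the log2 scale (exact permutation test, two-sided p = 0.333, the smallest that 2 against 2 libraries allow, and 0.6 adjusted over 9 ratios). The summed RPKM of both genes was 25.4 and 21.0 in WT and 18.2 and 17.8 in JMJD1B-/- HSPCs. Cdkn2c made up 47.2% and 43.7% of that sum in WT and 58.4% and 58.9% in JMJD1B-/- HSPCs. The remaining INK4 genes, Cdkn2a and Cdkn2b, were not analysed here.

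None of the 3 pocket protein genes had an unadjusted p under 0.05. Rb1, the gene of the retinoblastoma protein, measured 26.02 and 29.2 RPKM in WT and 38.2 and 31.8 RPKM in JMJD1B-/- HSPCs, both above both WT values. Its log2 fold change was 0.34 (standard error 0.19, 95% interval −0.12 to 0.79, adjusted p = 0.597 in limma) and lay between 0.21 and 0.47 over the alternatives. Rbl1, the gene of p107, had 31.6 and 35.8 RPKM in WT and 34.8 and 32.9 RPKM in JMJD1B-/- HSPCs. Its log2 fold change was 0.01 (standard error 0.18, 95% interval −0.41 to 0.44, adjusted p = 0.990 in limma), the narrowest interval of the set. Rbl2, the gene of p130, which is the pocket protein of resting cells, had 27.8 and 29.0 RPKM in WT and 36.6 and 21.0 RPKM in JMJD1B-/- HSPCs. The JMJD1B-/- libraries thus lay on either side of WT, and the log2 fold change was −0.03 (standard error 0.28, 95% interval −0.68 to 0.61, adjusted p = 0.979 in limma). The summed RPKM of the 3 genes was 85.4 and 93.9 in WT and 109.6 and 85.7 in JMJD1B-/- HSPCs, and the share of Rb1 in it was 30.5% and 31.1% in WT and 34.8% and 37.1% in JMJD1B-/- HSPCs.

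**Figure D2:**
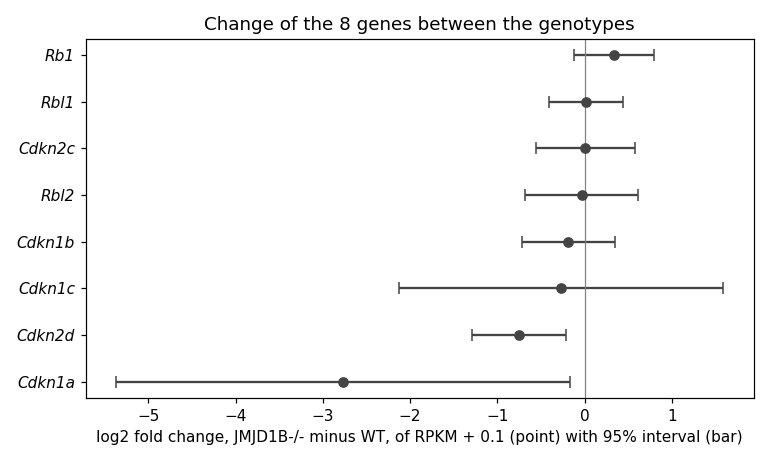
Log2 fold change of each gene between JMJD1B-/- and WT HSPCs (horizontal axis, on the log2(RPKM + 0.1) scale), with bars for the 95% interval of limma. The unadjusted intervals of Cdkn1a (−5.37 to −0.17) and Cdkn2d (−1.29 to −0.21) lie below 0, and the intervals of the other 6 genes include 0.

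Rb1, Rbl2 and the inhibitors were also set against their relatives and targets within each library, in 9 ratios. The ratio of Rb1 to Rbl2 was 0.935 and 1.01 in WT and 1.04 and 1.51 in JMJD1B-/- HSPCs, higher without overlap by 0.37 on the log2 scale. This difference was 0.10 when JMJD1B-/- replicate 2 was left out and 0.64 when JMJD1B-/- replicate 1 was. Cdkn1a relative to Cdkn1b was lower by 2.58 log2 units and relative to Cdk2 by 2.69 log2 units, both computed with 0.1 RPKM added. When JMJD1B-/- replicate 1, where Cdkn1a is listed at 0, was left out, these differences were −0.87 and −1.41, and when JMJD1B-/- replicate 2 was left out they were −4.30 and −3.96. Cdkn2d relative to Cdk4, one of the kinases that p19 binds, was 0.128 and 0.102 in WT and 0.0716 and 0.0486 in JMJD1B-/- HSPCs. The exact permutation test gave p = 0.333, the smallest possible, for each of these ratios, and 0.6 after adjustment. The ratios of Rbl1 to Rbl2, Cdkn1c to Cdkn1b, Cdkn1b to Cdk2 and Cdkn2c to Cdk6 overlapped between the genotypes, with differences of 0.05, −0.08, −0.10 and 0.19 on the log2 scale.

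**Figure D3:**
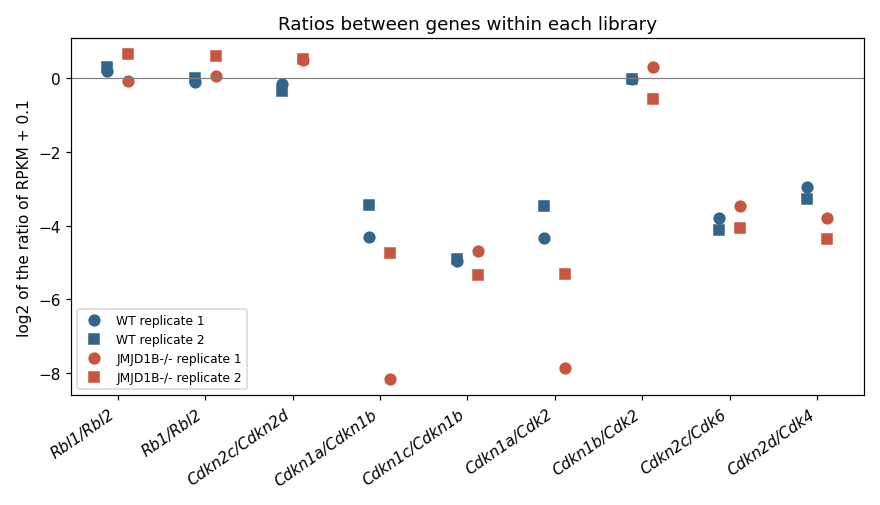
Log2 of the ratio between 2 genes within a library (vertical axis, from RPKM + 0.1), for 9 pairs of genes and the 4 libraries as points. The WT and JMJD1B-/- points do not overlap for Rb1/Rbl2, Cdkn2c/Cdkn2d, Cdkn1a/Cdkn1b, Cdkn1a/Cdk2 and Cdkn2d/Cdk4, and overlap for the other 4 pairs.

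Of the cyclins and CDKs of G1 and S phase, which the inhibitors act on, 2 of 13 genes tested were higher at an unadjusted p under 0.05 and 0 were lower, against 3.81% and 6.33% of all genes, and their median log2 fold change was 0.19. The median was 0.08 when WT replicate 1 was left out, and 0.31 and 0.03 when JMJD1B-/- replicate 1 and JMJD1B-/- replicate 2 were. With WT replicate 1 or WT replicate 2 left out, 1 of 13 was higher, against 1.04% and 2.11% of all genes, and 0 were lower. With JMJD1B-/- replicate 1 left out, 3 were higher and 1 was lower, against 10.6% and 11.03%, and with JMJD1B-/- replicate 2 left out, 2 were higher and 1 was lower, against 6.13% and 15.3%. Ccne1, the gene of cyclin E1, the activator of CDK2, had 19.4 and 26.3 RPKM in WT and 43.6 and 48.7 RPKM in JMJD1B-/- HSPCs. Its log2 fold change of 1.03 (standard error 0.21) had an adjusted p of 0.204 in limma. Ccna2, the gene of the S phase cyclin A2, had 69.7 and 84.3 RPKM in WT and 103.7 and 103.2 RPKM in JMJD1B-/- HSPCs (log2 fold change 0.43). The kinase genes overlapped between the genotypes, with log2 fold changes of −0.08 for Cdk2, 0.21 for Cdk4 and −0.18 for Cdk6. Among the D-type cyclins, the partners of CDK4 and CDK6, these were −0.52 for Ccnd1 and 0.09 for Ccnd2, both with overlap, and 0.23 for Ccnd3, which was higher without overlap. Ccne2 had a log2 fold change of 0.41 and no overlap. Leaving out WT replicate 1 gave 0.08 for Ccnd3 and 0.24 for Ccne2, and for Cdk2, Cdk4, Cdk6, Ccnd1 and Ccnd2 the sign turned when 1 of the libraries was left out. Cyclins of G2 and M phase with CDK1 (6 genes) had a median of 0.24, or 0.13 when JMJD1B-/- replicate 2 was left out, and none had an unadjusted p under 0.05.

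Downstream of the pocket proteins, 5 of 25 E2F target genes of DNA replication were higher at an unadjusted p under 0.05, against 3.81% of all genes, and 15 of 25 were higher without overlap, against 20.1%. None was lower by either measure, none had an adjusted p under 0.05, and their median log2 fold change was 0.32. Without WT replicate 1, which had the lower summed level of these genes among the WT libraries (1204 against 1475 RPKM), 0 of 25 were higher at an unadjusted p under 0.05, against 1.04% of all genes, and the median was 0.12. Without WT replicate 2, 3 of 25 were higher, against 2.11%, and the median was 0.48. Without the shallow JMJD1B-/- replicate 1, 5 of 25 were higher, against 10.6% of all genes, and without JMJD1B-/- replicate 2, 2 of 25 were, against 6.13%. Rrm2, a subunit of ribonucleotide reductase, had 37.3 and 54.1 RPKM in WT and 82.1 and 75.4 RPKM in JMJD1B-/- HSPCs (log2 fold change 0.81, adjusted p = 0.32 in limma). Log2 fold changes were 0.62 for Cdc6 and for Orc1, which license replication origins, and that of Cdc6 was 0.29 when WT replicate 1 was left out and 0.95 when WT replicate 2 was. Of the E2F and DP factors, 1 of 10 was higher at an unadjusted p under 0.05, against 3.81% of all genes. This was E2f2, at 5.83 and 6.44 RPKM in WT and 11.1 and 10.1 RPKM in JMJD1B-/- HSPCs (log2 fold change 0.78). None of the 10 was lower at that threshold, against 6.33%. By overlap, 4 of these factors were higher and 1 was lower, against 20.1% and 22.7% of all genes. The median of the factors was 0.06. It rose to 0.19 when JMJD1B-/- replicate 1 was left out and turned to −0.03 when JMJD1B-/- replicate 2 was. Of 7 genes of the MuvB core and its partners, 3 were lower and 2 higher without overlap, against 22.7% and 20.1% of all genes. The list includes Mybl1 and Mybl2. Its median was −0.20, and no unadjusted p was under 0.05. This median turned to 0.09 when JMJD1B-/- replicate 1 was left out, and was −0.11 when WT replicate 2 and −0.33 when JMJD1B-/- replicate 2 was. Proliferation markers (12 genes) had a median of 0.19, with 8 higher without overlap, against 20.1% of all genes, and none with an unadjusted p under 0.05. The median was 0.12 when WT replicate 1 was left out and 0.11 when JMJD1B-/- replicate 2 was. Erythroid markers were higher in the same libraries, as given above.

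A list of 16 genes was set for protein degradation around the CDK inhibitors, and not all of them act on the inhibitors themselves. Of these, 1 was higher at an unadjusted p under 0.05, near the 3.81% of all genes. Without overlap, 6 were higher and 0 lower, against 20.1% and 22.7%. The median was 0.16, and it was −0.01 when JMJD1B-/- replicate 2 was left out, 0.33 when JMJD1B-/- replicate 1 was, 0.11 when WT replicate 1 was and 0.26 when WT replicate 2 was. Cks2, a small CDK-binding protein of the family that aids the degradation of p27, had 35.7 and 43.5 RPKM in WT and 56.0 and 61.0 RPKM in JMJD1B-/- HSPCs (log2 fold change 0.57). Skp2, the receptor that marks p27 for the proteasome, had 5.32 and 4.198 RPKM in WT and 5.37 and 7.08 RPKM in JMJD1B-/- HSPCs. It differed by 0.38 on the log2 scale, with a standard error of 0.30 (adjusted p = 0.705 in limma), and by 0.18 to 0.57 when single libraries were left out.

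Among transcriptional regulators of the inhibitors, 4 of 20 genes were lower at an unadjusted p under 0.05, against 6.33% of all genes, and 0 were higher, with a median log2 fold change of −0.30. Leaving out JMJD1B-/- replicate 1 gave a median of −0.05 and leaving out JMJD1B-/- replicate 2 one of −0.42, with 5 of 20 and 6 of 20 lower at that threshold, against 11.03% and 15.3% of all genes. When WT replicate 1 or WT replicate 2 was left out, 1 of 20 was lower, against 1.49% and 2.29%. Cebpa, the gene of the myeloid factor C/EBPα, had 13.4 and 12.7 RPKM in WT and 1.05 and 2.36 RPKM in JMJD1B-/- HSPCs (log2 fold change −2.96, standard error 0.41, adjusted p = 0.0768 in limma). Gfi1, a repressor known for restraining the cycling of stem cells, had 3.48 and 3.74 RPKM in WT and 2.35 and 0.732 RPKM in JMJD1B-/- HSPCs. The log2 fold change of Gfi1 was −1.37, and −2.15 and −0.59 when JMJD1B-/- replicate 1 and JMJD1B-/- replicate 2 were left out. Mecom, a stem cell factor, had a log2 fold change of −1.24. In the same libraries neutrophil and granulocyte markers summed to 268 and 182 RPKM in WT and 82.4 and 53.1 RPKM in JMJD1B-/- HSPCs. The members of that list went both ways, with Mpo, Elane, Prtn3 and Ctsg lower (15.9% to 25.9% of the WT mean) and S100a8 and S100a9 higher (161.2% and 448.7%), all without overlap. The part of these differences in the level of Cebpa was not tested. Trp53, the gene of p53, had 26.8 and 26.3 RPKM in WT and 19.2 and 43.0 RPKM in JMJD1B-/- HSPCs, on either side of WT (log2 fold change 0.11, standard error 0.35, adjusted p = 0.936 in limma, and 0.69 and −0.46 when JMJD1B-/- replicate 1 and JMJD1B-/- replicate 2 were left out).

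Other p53 target genes went both ways. Of 22 tested, 1 was lower and 2 were higher at an unadjusted p under 0.05, against 6.33% and 3.81% of all genes, while 11 were lower and 5 higher without overlap, against 22.7% and 20.1%. Their median log2 fold change was −0.31, and −0.21 when JMJD1B-/- replicate 1 was left out. The unadjusted counts were 4 lower and 4 higher when JMJD1B-/- replicate 1 was left out, against 11.03% and 10.6% of all genes, and 3 lower and 1 higher when JMJD1B-/- replicate 2 was, against 15.3% and 6.13%. They were 0 in both directions when WT replicate 1 was left out, against 1.49% and 1.04%, and when WT replicate 2 was, against 2.29% and 2.11%. Pmaip1, the gene of the cell-death factor NOXA, had 4.25 and 4.92 RPKM in WT and 2.90 and 1.12 RPKM in JMJD1B-/- HSPCs (log2 fold change −1.29, and −1.94 and −0.64 when JMJD1B-/- replicate 1 and JMJD1B-/- replicate 2 were left out). Sesn2, the gene of the stress protein sestrin 2, had 2.33 and 1.93 RPKM in WT and 3.48 and 4.69 RPKM in JMJD1B-/- HSPCs (log2 fold change 0.90), and Ccng1, the gene of cyclin G1, had a log2 fold change of 0.43. No gene of any of these pathway lists had an adjusted p under 0.05.

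**Figure D4:**
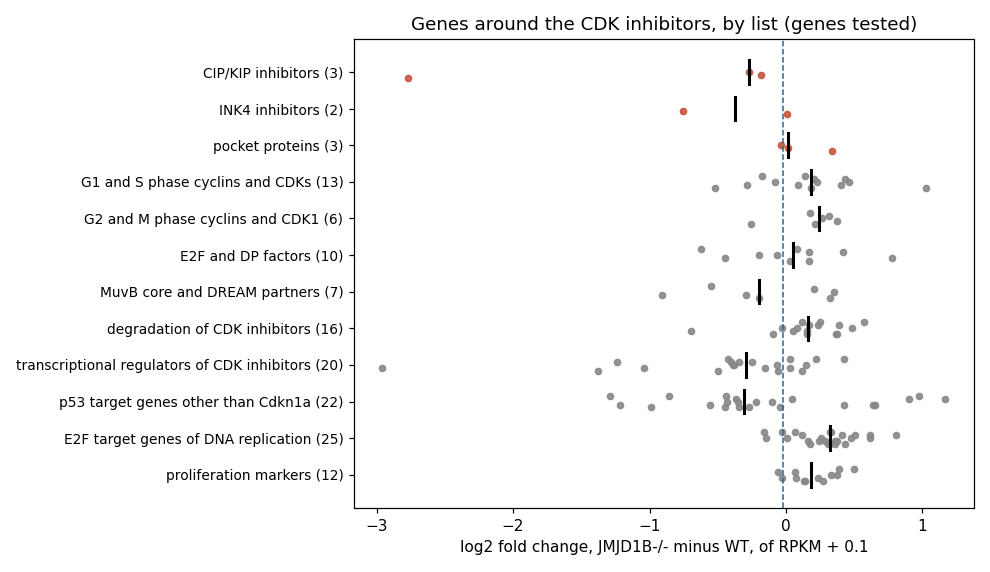
Log2 fold change between JMJD1B-/- and WT HSPCs (horizontal axis, on the log2(RPKM + 0.1) scale) of single genes as points, by list, with the number of genes tested in brackets, the 8 genes described here in red, list medians as black bars and the median of all genes (−0.02) as a dashed line. Medians run from −0.37 for the pair of INK4 inhibitors to 0.32 for the E2F targets, and Cdkn1a (−2.77) and Cebpa (−2.96) lie farthest to the left.

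Likeness of expression was measured as the Euclidean distance between log2(RPKM + 0.1) profiles over the 4 libraries, each centred on its mean. The genes nearest to Cdkn1a were Sgce, C230035I16Rik and 1810044D09Rik, at distances of 0.51, 0.52 and 0.55, and 2 of these 3 were also listed at 0 in JMJD1B-/- replicate 1. The genes nearest to Cdkn2d were Map4k4, AW555464 and Zfp551, at distances of 0.08, 0.08 and 0.09. Map4k4, a kinase gene, had 23.7 and 22.0 RPKM in WT and 14.5 and 13.6 RPKM in JMJD1B-/- HSPCs. With 4 libraries such likeness is a description of the values alone.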

How the data were processed

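For RNA-seq, the authors deposited RPKM, with 1 added to every value, in a single table for 2 WT and 2 JMJD1B-/- libraries. The submitters' processing notes name TopHat2, Novoalign and mm9, with no role, and the gene annotation is not given in the sources used here. This 1 was subtracted again, and 84 entries sharing 42 names were averaged by name. Names that stay under 1 RPKM in all libraries are not in the table. No column belonged to another sample, and ChIP-seq was not used here.

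The 11863 of 11982 genes that averaged at least 0.5 RPKM entered a limma fit of log2(RPKM + 0.1) (limma version 3.58.1, R version 4.3.3; lmFit, then eBayes with a trend, genotype alone, two-sided), with Benjamini-Hochberg adjustment over all of them. The fit was tested on simulated data. Ratios were tested with an exact permutation test. Depth was estimated from whole-number ratios among 205 low genes and from the lengths of short genes. Of 2505 genes tried, whole numbers were found for 1197. The depth used came from 54 genes, while 63 gave a depth 51 times higher, which was read as a count of bases of 51-base reads, and the next commonest depth had 21 genes. The depth is an estimate, so intervals and limits that use it cover counting error only. Python 3.11.15 with numpy 2.4.6, pandas 2.3.3, scipy 1.17.1 and matplotlib 3.10.9 was used for tables and figures.

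The 8 genes, the lists and the tests were chosen with earlier results of these data known. Besides the 8 genes, the text names at most 3 genes per pathway list (those with an unadjusted p under 0.05 and no overlap, by size of change), the direct partners Cdk2, Cdk4, Cdk6, Ccnd1, Ccnd2, Ccnd3, Ccne1, Ccne2, Skp2 and Trp53, Kdm3b, and the 3 nearest genes of Cdkn1a and Cdkn2d. Markers and sex-linked genes were named after their values were seen. Alternatives were other pseudocounts (1 and 0.01), filters, scalings and tests, a replicate block and leaving out each library.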

Additional observations from a re-analysis of the deposited data

How the results depend on the processing

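With the settings of the report, 4 genes were lower and 1 was higher at an adjusted p under 0.05 in limma. With a pseudocount of 1 there were 15 lower and 3 higher, 1 of them a transcriptional regulator of the inhibitors. The number lower at that threshold was 2 with a pseudocount of 0.01 and with the filter raised to a mean of 1 RPKM, and 0 with median-ratio scaling, quantile normalization, limma without the trend and the gene-by-gene test, the last pair of which also left 0 higher. The replicate numbers only name the libraries (correlation of deviations −0.05). With a replicate block, 173 genes were lower and 83 higher, among them 1 gene each of the G1 and S phase cyclins and CDKs, the transcriptional regulators and the E2F targets, and none of the 8 genes. Of these 8, 1 was lower at an unadjusted p under 0.05 with a pseudocount of 0.01, quantile normalization and the gene-by-gene test, against 6.05%, 6.02% and 4.32% of all genes. Quantile normalization turned Cdkn1c to 0.206 and Rbl1 to −0.0185, and a pseudocount of 1 turned the ratio of Cdkn1c to Cdkn1b to 0.0795. Cdkn1a, Cdkn2d and Rb1 kept their sign in all 14 alternatives. These genes do not overlap between the genotypes, so most of the alternatives could not have turned it. The mean filter of 1 RPKM left no value for Cdkn1c.

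Leaving out each library gave 0 to 523 genes lower and 0 to 147 higher at an adjusted p under 0.05, and 177 to 1819 lower and 123 to 1258 higher at an unadjusted one. Without a JMJD1B-/- library, the spread comes from the WT pair and the lone sample is assumed to vary like it. Of the 8 genes, 0 to 1 were lower after adjustment, 0 to 2 were lower and 0 to 1 higher before it. The lists gave 0 to 2 adjusted calls for G1 and S phase cyclins and CDKs and for p53 targets and 0 to 3 for transcriptional regulators. Log2 fold changes ranged from −4.22 to −1.31 for Cdkn1a (adjusted p = 0.0145 in limma for the former, without JMJD1B-/- replicate 2), −0.44 to 0.0719 for Cdkn1b, −0.85 to 0.31 for Cdkn1c, −0.18 to 0.20 for Cdkn2c, −0.0776 to 0.10 for Rbl1 (−0.03 without JMJD1B-/- replicate 1) and −0.44 to 0.37 for Rbl2. Log2 ratios ranged from −0.31 to 0.41 for Rbl1 to Rbl2 (−0.01 without WT replicate 1), −0.41 to 0.24 for Cdkn1c to Cdkn1b, −0.54 to 0.33 for Cdkn1b to Cdk2 and −0.12 to 0.49 for Cdkn2c to Cdk6. The cause of these changes was not tested. The depth of JMJD1B-/- replicate 1 limits what can be read from Cdkn1a and Cdkn1c.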

Other observations

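Markers of other cell types also differed between the libraries, given here in the order of WT replicates 1 and 2 and JMJD1B-/- replicates 1 and 2. Summed levels were 677, 615, 266 and 374 RPKM for 6 megakaryocyte and platelet markers, and 40.1, 73.0, 25.1 and 11.1 RPKM for 7 stroma and endothelium markers. They were 50.4, 39.95, 48.4 and 18.1 RPKM for 4 monocyte and macrophage markers and 21.4, 28.1, 49.0 and 14.2 RPKM for 8 T and NK cell markers. Of 8 B cell markers 1 was listed, Cd79b, at 3.28, 1.99, 1.22 and 0.631 RPKM. The part of these differences in the values of the CDK inhibitor genes was not tested.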
